A study of Mus musculus with 6 samples.

Results

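The genes described here are 9 genes that red cell and platelet precursors are known for, read in RNA sequencing libraries of mouse bone marrow neutrophils. They are the adult globins Hba-a1, Hba-a2, Hbb-bs and Hbb-bt, the heme enzyme Alas2, the carbonic anhydrases Car1 and Car2, and the platelet chemokines Pf4 and Ppbp. They were taken by symbol, 9 of 54532 genes listed, and all 9 were above 0 in at least 1 library. They were selected on their FPKM in WT and PGRN KO, already known from an earlier look at these libraries, so that their difference between genotypes is given as a description, with no test. Neutrophils came from the bone marrow of C57BL/6J mice, either WT or with a knockout of progranulin (PGRN, gene symbol Grn), with 3 libraries of each genotype. All 6 cultures had been incubated with live Candida albicans for 6 h, so no library shows either genotype without the fungus. The labels and the methods give different multiplicities of infection. In the knockout animals every kind of cell lacks PGRN, and WT and PGRN KO mice came from different suppliers. The neutrophils were taken with beads against Ly-6G, and the number of mice behind a culture is not stated. If replicates did not come from separate animals, the p-values below measure only the spread between these libraries.

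Hemoglobin carries oxygen in red cells and is built from alpha and beta chains, each holding a heme group. Its genes are switched on in red cell precursors of the bone marrow by GATA1 and KLF1, which bind GATA and CACCC elements, while the precursors of platelets, the megakaryocytes, share GATA1 with them and fill their granules with chemokines. Neutrophils are not known for hemoglobin, and bone marrow holds all of these precursors next to them.

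The values are FPKM, fragment numbers divided by the length of the gene and the size of the library, and they can be compared between genes. Every FPKM above 0, multiplied by the length of its gene, was a whole multiple of 1 fragment within 0.05, so the number of fragments behind each value is known. Depth ranged from 17290604 to 17799798 fragments for WT libraries and from 17087344 to 18821091 for PGRN KO libraries. As the labels have it, Grn itself lay between 161.3 and 168.4 FPKM in WT, and between 0.206 and 0.747 in PGRN KO. The markers of neutrophils summed to between 67487 and 72103 FPKM in WT, and to between 69279 and 79054 in PGRN KO. Most of each sum was S100a9, S100a8 and Ngp, so it says little of the other markers. In the limma fit given below, 1 of the 11 markers was called higher in PGRN KO (Mmp9) and 2 lower (Csf3r and Mmp8). Over all tested genes 7.94% were called higher and 9.95% lower. S100a9, a calcium-binding protein that fills the neutrophil cytoplasm, was 22485 to 70571 times the level of Hba-a1 in WT and 12011 to 14902 times in PGRN KO.

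Of the 9 genes, 8 lie as pairs of related genes on the same chromosome in the mouse genome (GRCm38), not always side by side. On chromosome 11, Hba-a1 and Hba-a2 are 12023 bases apart, and on chromosome 7, Hbb-bt and Hbb-bs are 12537 apart. Between Car1 and Car2 on chromosome 3 lie 77904 bases, and between Ppbp and Pf4 on chromosome 5 only 2371. The gene Hbq1b lies between Hba-a1 and Hba-a2, and Car3 lies between Car1 and Car2. Alas2 is on the X chromosome. RefSeq start sites were found for 7 of the 9, all but Car1 and Car2, and the 250 bases before them were searched on both strands for 3 motifs. They were the hexamers that read GATA with an A or T before it and an A or G after it, the letters CACCC, and the letters CCAAT. The stretches below show how the regulatory letters differ among the genes. Each runs 5′ to 3′ on the strand of the gene, is taken from RefSeq (GRCm38.p6) and stops before the first base of the deposited gene model, and capitals mark the matches within it. Where the RefSeq start site lies further on, as in Hbb-bs, Hbb-bt and Alas2, the rest of the searched window is not shown.

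For the alpha globin Hba-a2, the stretch is chr11:32296242-32296488 on the plus strand.
Hba-a2: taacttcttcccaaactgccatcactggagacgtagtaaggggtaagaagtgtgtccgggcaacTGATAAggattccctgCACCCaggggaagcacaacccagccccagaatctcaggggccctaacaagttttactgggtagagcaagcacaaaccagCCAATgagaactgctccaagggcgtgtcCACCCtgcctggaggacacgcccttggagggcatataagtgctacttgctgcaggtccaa
For the beta globins, it is chr7:103828097-103828178 in Hbb-bs and chr7:103813997-103814173 in Hbb-bt, both on the minus strand.
Hbb-bs: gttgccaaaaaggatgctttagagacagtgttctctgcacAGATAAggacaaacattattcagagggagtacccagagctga
Hbb-bt: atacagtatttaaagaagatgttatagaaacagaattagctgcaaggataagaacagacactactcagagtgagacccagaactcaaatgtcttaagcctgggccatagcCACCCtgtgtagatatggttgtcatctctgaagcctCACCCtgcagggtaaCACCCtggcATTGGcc
For Alas2, the enzyme that starts heme synthesis in red cell precursors, it is chrX:150547167-150547374 on the plus strand.
Alas2: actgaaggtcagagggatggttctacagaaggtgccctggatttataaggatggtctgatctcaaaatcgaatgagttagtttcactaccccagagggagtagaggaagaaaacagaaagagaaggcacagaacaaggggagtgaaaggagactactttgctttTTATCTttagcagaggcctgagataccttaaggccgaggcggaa
For the platelet chemokine Pf4, it is chr5:90772185-90772434 on the plus strand.
Pf4: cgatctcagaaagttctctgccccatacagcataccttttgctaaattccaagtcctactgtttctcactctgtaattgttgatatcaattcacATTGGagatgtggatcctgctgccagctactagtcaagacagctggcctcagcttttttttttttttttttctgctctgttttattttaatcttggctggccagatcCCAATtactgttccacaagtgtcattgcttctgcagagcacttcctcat

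A GATA match was held by 4 of the 7 windows, those of Hba-a1, Hba-a2, Hbb-bs and Alas2, against 26.5% of all 32851 windows of this length. In Hba-a2 it began 186 bases before the start site, in Hbb-bs 210 and in Alas2, on the reverse strand, 86. CACCC was in 5 of the 7 windows and in 52.0% of all windows, with 3 matches each in Hbb-bt and Alas2, those of Alas2 directly following each other and lying within its gene model, as do those of CACCC and CCAAT in Hbb-bs. CCAAT was in 5 of the 7 and in 33.9% of all windows, with 3 matches in Hbb-bt, of which a pair directly follow each other. No letters of these kinds were in the window of Ppbp, while Pf4 held CCAAT alone, on both strands. The windows of Hba-a1 and Hba-a2 shared a run of 297 bases out of 300 (the window with 50 bases past the start), and those of Hbb-bs and Hbb-bt at most 14. A match is a description of the letters, and these data do not measure binding.

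The paired globin genes share sequence within their transcripts too. Of the stretches of 150 bases in the Hba-a2 transcript, 65.7% were also found in that of Hba-a1, and of those in the Hbb-bt transcript 50.7% were in that of Hbb-bs. The split of fragments between the copies therefore depends on how the authors treated reads that fit both, and the sum of a pair is firmer than its members. No stretch of 50 bases was shared between Pf4 and Ppbp or between Car1 and Car2.

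Globin transcripts were rare in all 6 libraries and more frequent in the 3 of PGRN KO. Fragments of the 4 adult globins numbered 40, 25 and 12 in the WT libraries and 85, 77 and 89 in those of PGRN KO. Per 1000000 fragments on genes this was 2.28, 1.45 and 0.674 in WT, a mean of 1.47 ± 0.802 (SD, n = 3), against 4.97, 4.48 and 4.73 in PGRN KO, a mean of 4.73 ± 0.246 (SD, n = 3). The genotypes did not overlap, and WT replicate 1 was the closest to the PGRN KO libraries. Its 95% Wilson interval ran from 1.67 to 3.10. Such intervals, like those of the ratios below, cover counting error only and are no test of genotype. Over genes with enough fragments, libraries of the same genotype differed by more than counting error, with a chi-square per degree of freedom of 2.83 to 11.7. In such bulk libraries, more cells of a kind and more RNA per cell cannot be told apart.

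**Figure D1:**
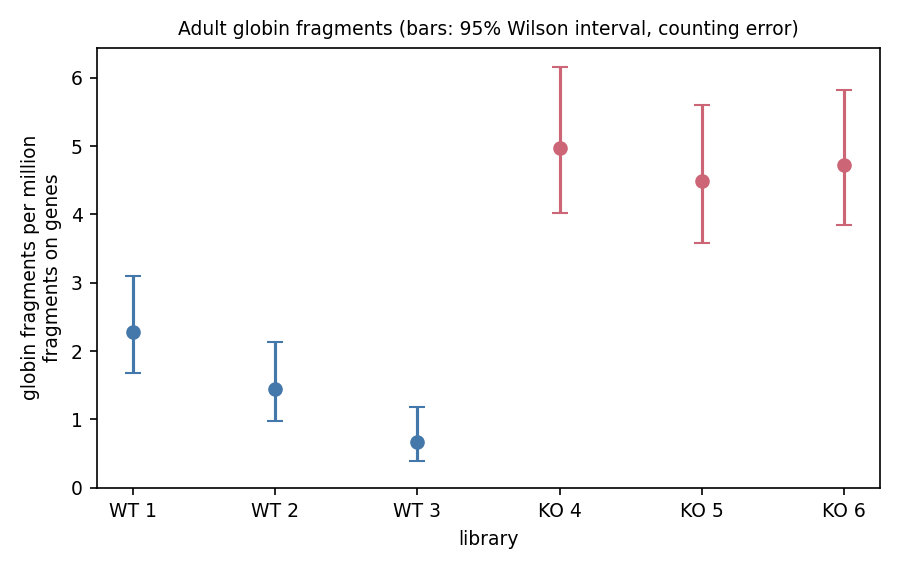
Fragments of Hba-a1, Hba-a2, Hbb-bs and Hbb-bt per 1000000 fragments on genes (vertical axis) in each library (horizontal axis), with bars for the 95% Wilson interval of counting error. The 3 WT libraries lie between 0.674 and 2.28 and the 3 PGRN KO libraries between 4.48 and 4.97.

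Hba-a1 (ENSMUSG00000069919, chromosome 11, 32283511 to 32284465), which encodes an alpha chain, was 1.45, 0.738 and 0.431 FPKM in the WT libraries and 2.76, 2.92 and 2.63 in PGRN KO. All PGRN KO libraries were above all WT libraries, and the WT libraries spread more widely, by SDs of 0.523 and 0.143. The rates of 36 and 125 fragments gave a ratio of 3.17 (95% counting interval 2.17 to 4.73), and log2(FPKM + 1) differed by 1.04 (SE 0.23). Here and for the other 8 genes the ratio is per the library size that the FPKM values imply, and not per the fragments on genes used for the summed globins. Per fragments on genes the ratio of Hba-a1 was 3.44, and those of the other genes were higher in like measure, from 0.744 in Alas2 to 5.95 in Car1. Its copy Hba-a2 (ENSMUSG00000069917, chromosome 11, 32296489 to 32297298) was 0.353, 0 and 0 FPKM in the WT libraries and 0.0840, 0.165 and 0.0763 in PGRN KO. Here the genotypes overlapped, with 4 fragments in each, and the highest library was WT replicate 1. The ratio of 0.912 had an interval from 0.170 to 4.90, so that at this depth the fragments of Hba-a2 give no direction.

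Both beta chains were higher in the PGRN KO libraries. Hbb-bs (ENSMUSG00000052305, chromosome 7, 103826534 to 103828096) was 1.23, 0.703 and 0.456 FPKM in the WT libraries and 2.48, 1.65 and 2.25 in PGRN KO. The groups did not overlap, and 31 and 91 fragments gave a ratio of 2.68 (95% counting interval 1.76 to 4.17), a difference of 0.81 (SE 0.21) in log2(FPKM + 1). Hbb-bt (ENSMUSG00000073940, chromosome 7, 103812524 to 103813996) was 0, 0.512 and 0 FPKM in the WT libraries and 0.797, 0.705 and 0.868 in PGRN KO. All 6 of its WT fragments were in replicate 2, and the 31 in PGRN KO were spread as 10, 9 and 12. The ratio of 4.71 thus had a wide interval, from 1.94 to 13.8, and log2(FPKM + 1) differed by 0.64 (SE 0.20).

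The balance of alpha and beta chains was read from levels per length. The summed FPKM of the alpha genes over that of the beta genes was 1.47, 0.608 and 0.946 in WT and 0.868, 1.31 and 0.868 in PGRN KO. The means were 1.01 ± 0.434 and 1.01 ± 0.255 (SD, n = 3), and the genotypes overlapped. Hbb-bt took 22.7%, 28.1% and 26.1% of the beta globin fragments in PGRN KO, with exact 95% intervals that span 11.5% to 46.7%. In WT it took 0 of 16, 40.0% of 15 and 0 of 6, where 0 of 16 allows a share of up to 20.6% and 0 of 6 up to 45.9%. With so few fragments the WT shares give no order against those of PGRN KO.

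The heme enzyme Alas2 (ENSMUSG00000025270, chromosome X, 150547375 to 150570638) was near 0 in all 6 libraries. It was 0.0490, 0.0250 and 0.0243 FPKM in the WT libraries and 0, 0.0229 and 0.0423 in PGRN KO, from 4 and 3 fragments. The groups overlapped, and the ratio of 0.684 had a 95% counting interval from 0.10 to 4.04. Its gene model overlaps Apex2 and Mir3620 on the opposite strand, and without counting by strand, which no source states, their reads cannot be told apart.

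Of the carbonic anhydrases, which turn carbon dioxide and water into bicarbonate, Car2 was the best supported gene of the 9. Car2 (ENSMUSG00000027562, chromosome 3, 14886273 to 14900770) is expressed well beyond red cells and was 1.73, 1.34 and 1.64 FPKM in the WT libraries and 2.24, 2.52 and 2.12 in PGRN KO. The genotypes did not overlap. The ratio from 193 and 309 fragments, 1.46 (95% counting interval 1.22 to 1.76), was lower than that of the globins Hba-a1, Hbb-bs and Hbb-bt, and log2(FPKM + 1) differed by 0.36 (SE 0.085). Car1 (ENSMUSG00000027556, chromosome 3, 14766216 to 14808368), the form abundant in red cells, was 0, 0 and 0.0468 FPKM in the WT libraries and 0.135, 0 and 0.122 in PGRN KO. That is 1 fragment against 6, with none in PGRN KO replicate 5, and a ratio of 5.47 with an interval from 0.664 to 251.8. Car1 overlaps the pseudogene Gm16399 on the same strand.

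Pf4 and Ppbp encode CXC chemokines that platelets store in their alpha granules. Pf4 (ENSMUSG00000029373, chromosome 5, 90772435 to 90773383) was 0.163, 0.249 and 0.486 FPKM in the WT libraries and 0.855, 1.07 and 0.847 in PGRN KO. All PGRN KO libraries were above all WT libraries, and WT replicate 3, the lowest in globins, was the highest WT library here. From 11 and 37 fragments the ratio was 3.07 (95% counting interval 1.53 to 6.67), and log2(FPKM + 1) differed by 0.57 (SE 0.12). Ppbp (ENSMUSG00000029372, chromosome 5, 90768518 to 90770063), its neighbour, was 0.163, 0 and 0 FPKM in the WT libraries and 0, 0.102 and 0.141 in PGRN KO. Here the groups overlapped, and 3 and 5 fragments gave a ratio of 1.52 with an interval from 0.296 to 9.79.

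**Figure D2:**
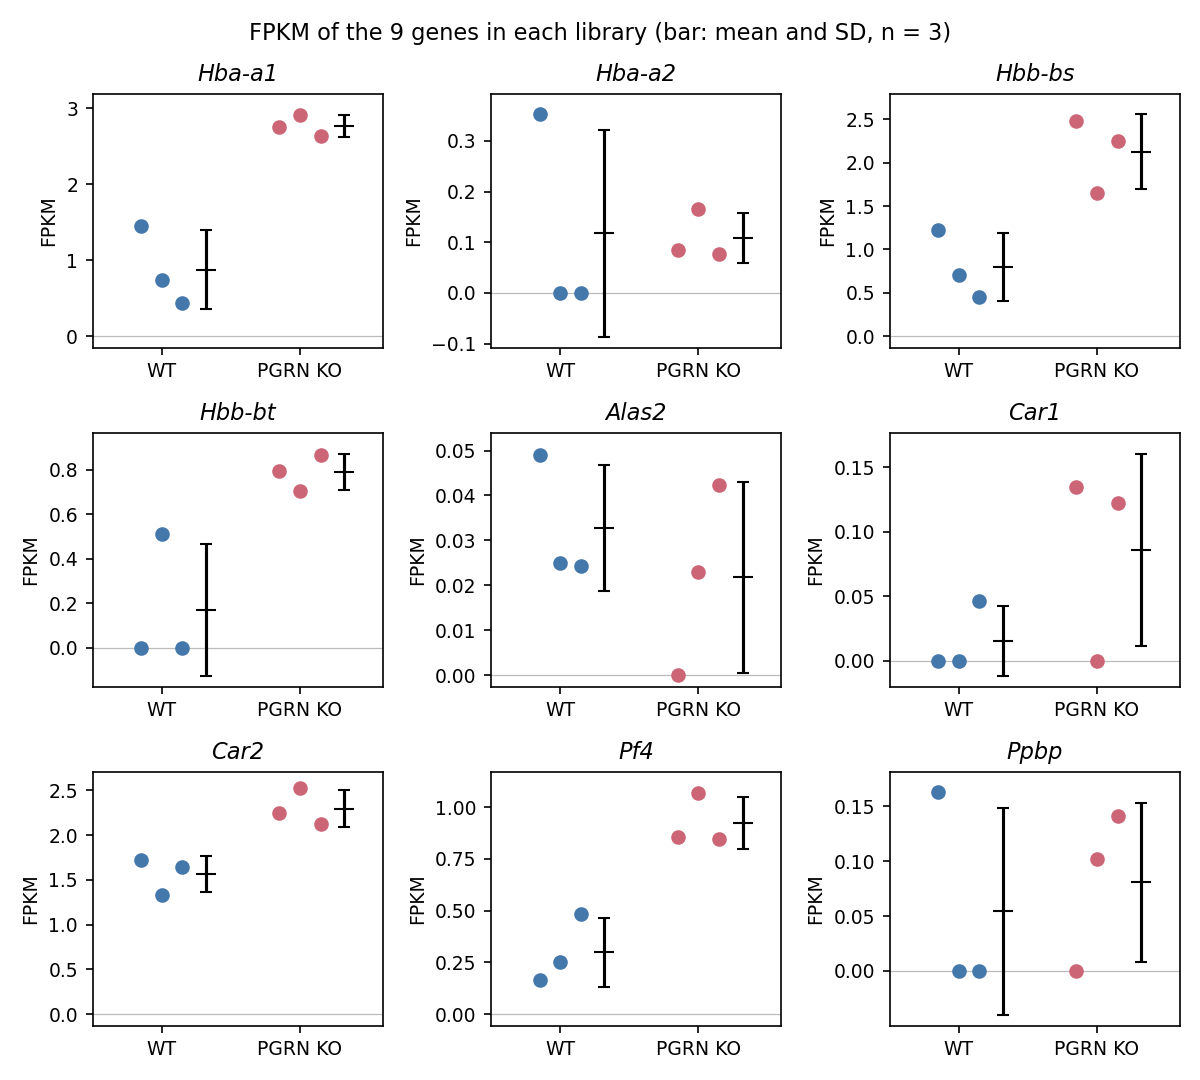
FPKM (vertical axes, a scale for each gene) in the 3 WT libraries (blue) and the 3 PGRN KO libraries (red), with horizontal marks for the mean and bars for the SD, n = 3, which reach below 0 where the fragments were in 1 WT library. In Hba-a1, Hbb-bs, Hbb-bt, Car2 and Pf4 the 3 red points lie above the 3 blue ones, and in the other 4 genes the groups overlap.

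Thus 5 of the 9 genes had all PGRN KO libraries above all WT libraries and 0 had them below, where 12.8% of the 22918 genes above 0 in any library lay wholly above and 13.8% wholly below. As this contrast chose the genes, nothing is read from that count. The filter of a mean of at least 0.1 FPKM was passed by 6 of the 9, and Alas2, Car1 and Ppbp were under it. For the 4 genes whose genotypes overlapped, the fragments over 6 libraries numbered 7 to 8, and for the other 5 they numbered 37 to 502. The 4 low genes all had counting intervals that take in a ratio of 1 and also, for each, a ratio of 3.

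**Figure D3:**
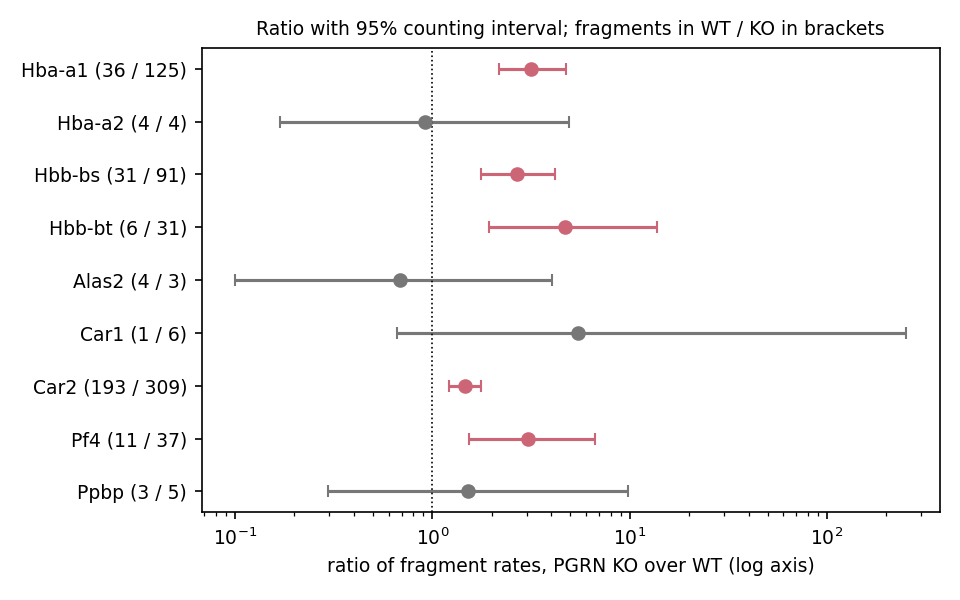
Ratio of fragment rates in PGRN KO over WT on a log axis, with bars for the 95% counting interval, for the 9 genes, each with its fragments in WT and PGRN KO. Red points are the genes whose genotypes did not overlap, with ratios from 1.46 in Car2 to 4.71 in Hbb-bt, and grey points are the other 4. The intervals are no test, as the genes were selected on this contrast.

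In levels per length, Car2 was the highest of the 9 in WT and Hba-a1 in PGRN KO. The WT order was Car2, Hba-a1, Hbb-bs, Pf4, Hbb-bt, Hba-a2, Ppbp, Alas2 and Car1, and no neighbours in it were apart beyond their spread. In PGRN KO the order was Hba-a1, Car2, Hbb-bs, Pf4, Hbb-bt, Hba-a2, Car1, Ppbp and Alas2. There Hba-a1 was wholly above Car2, Hbb-bs wholly above Pf4 and Hbb-bt wholly above Hba-a2, while the other neighbours overlapped. The median over all tested genes was 2.14 FPKM, close to the levels of Car2 and Hba-a1 in PGRN KO.

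The profiles nearest to each gene were found among 9249 genes with a mean of at least 1 FPKM, by the root mean square difference of centred log2(FPKM + 1) over the 6 libraries. For Hba-a1 they were Fads1 (0.182), Hbb-bs (0.190) and Igha (0.191), against a spread of Hba-a1 about its own mean of 0.57. For Hbb-bs they were Iglv1 (0.124), Gm4294 (0.157) and Igkv5-43 (0.158), and for Hbb-bt Cd79a (0.111), Iglc3 (0.119) and Rfc4 (0.128). Igha, Iglv1, Igkv5-43, Iglc3 and Cd79a belong to antibodies or the B cell receptor, and the same lists also hold Fads1, Gm4294 and Rfc4. The measure takes in the step from WT to PGRN KO, on which the genes described here were selected. Any gene with a like step comes out near, so no kind of cell is read from the nearest genes. Pf4 was nearest to Tnfrsf13b (0.0468), Pxylp1 (0.0592) and Dut (0.0598), and Car2 to Efcab11 (0.0393), Cuta (0.0403) and Brip1 (0.0427). For the 4 genes of 7 to 8 fragments the profile rested on too few fragments, and the measure says little. The nearest were Gm7774, Snapc2 and Anapc16 for Hba-a2, Maea, Ppid and Gtf2b for Alas2, Ddx56, Cx3cr1 and Lars for Car1, and Agpat2, Syf2 and Ap5m1 for Ppbp.

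Other genes of the same pathways were followed in lists, with limma across 14807 genes and Benjamini-Hochberg adjustment, in which 17.9% of genes were called at an adjusted p under 0.05, 7.94% higher and 9.95% lower in PGRN KO. The median log2 fold change over all tested genes was 0.0026. Limma voom on recovered fragments, an alternative given beside some lists, called 2984 of these 14807 genes higher and 1252 lower, with a median of 0.12. Voom counts of a list are to be read against those. The share of all genes at an unadjusted p under 0.05 was not taken, so unadjusted counts of a list cannot show an excess over it. Beyond the 4 adult globins, 10 further globins were listed and none could be tested. Embryonic and other globins (Hbb-bh0, Hbb-bh1, Hbb-bh2, Hbb-y, Hba-x, Hbq1a, Cygb and Mb), 8 of the 10, had 0 fragments in every library, and the rest held 1 fragment in WT and 2 in PGRN KO.

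Among genes of heme synthesis and transport, 2 of 14 tested rose and 0 fell by limma, with a median log2 fold change of 0.13. At an unadjusted p under 0.05 these were 6 and 1, and limma voom on recovered fragments called 7 and 0. Slc25a38, the mitochondrial carrier that brings glycine to heme synthesis, went from 4.66 ± 0.516 to 5.86 ± 0.134 FPKM (SD, n = 3; log2 fold change 0.28, limma adjusted p = 0.0471). Without WT replicate 1 no heme gene was called by limma, against 2 in all 6 libraries, and Slc25a38 was past the threshold in 7 of 14 alternative analyses. Alas1, the form of the first enzyme found in all tissues, was 139.0 ± 0.588 FPKM in WT and 143.5 ± 8.22 in PGRN KO (limma adjusted p = 0.594), far above Alas2.

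No gene of the red cell membrane and its skeleton was called by limma, of 5 tested, with 0 also at an unadjusted p under 0.05 and 1, the water channel Aqp1, by limma voom on recovered fragments. The other 15 were under the filter. Together these 15 had 16, 19 and 19 fragments in WT and 45, 29 and 55 in PGRN KO. Slc4a1, the anion exchanger of red cells known as band 3, had 0, 3 and 1 against 3, 2 and 8. This defining gene overlapped between genotypes and was near 0.

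Of the erythroid regulators and receptors, 2 of 8 tested rose, 1 fell and the median log2 fold change was 0.11. Myb, a factor of immature blood cells, rose from 2.10 ± 0.0555 to 3.10 ± 0.104 FPKM, and Nfe2, a factor of megakaryocytes, red cells and neutrophils, rose from 47.6 ± 1.57 to 59.7 ± 2.26 (SD, n = 3; log2 fold changes 0.40 and 0.32, limma adjusted p = 0.00613 for both). The transferrin receptor Tfrc, which takes up iron, fell from 64.2 ± 5.75 to 47.2 ± 2.63 FPKM (−0.43, limma adjusted p = 0.0104). The defining factors were among 8 genes under the filter, which together had 18, 21 and 16 fragments in WT and 43, 45 and 33 in PGRN KO. Gata2, also listed below as a basophil and mast cell marker, made up much of that difference, with 1, 3 and 2 against 13, 25 and 10. Cbfa2t3 was lower, with 13, 13 and 10 against 8, 5 and 4. Gata1 had 0, 0 and 3 fragments in WT and 4, 3 and 6 in PGRN KO, Klf1 had 0, 0 and 1 against 4, 0 and 3, and the erythropoietin receptor Epor 0, 1 and 0 against 1, 0 and 2.

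Proteins of late red cell precursors and reticulocytes went both ways, with 1 of 9 tested higher and 2 lower, and a median log2 fold change of −0.015. Ube2l6, an enzyme that passes on the interferon-induced tag ISG15, rose from 107.3 to 150.8 FPKM (0.49, limma adjusted p = 0.00425). Tent5c, a poly(A) polymerase, fell from 7.33 to 4.28 (−0.65, limma adjusted p = 0.00286) and the biliverdin reductase Blvrb from 22.3 to 14.3 (−0.61, limma adjusted p = 0.00314).

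Platelet and megakaryocyte genes other than Pf4 and Ppbp also went both ways, with 2 of 15 tested higher, 4 lower and a median log2 fold change of 0.025. Their levels differed widely. WT means were 780.4 FPKM in Plek, which was among the lower, and 28.8 in F13a1, against 0.159 in Itga2b. Which cells held these transcripts was not tested. The largest changes were in Thbs1, which encodes thrombospondin and fell from 175.7 ± 11.8 to 71.9 ± 3.46 FPKM (SD, n = 3; −1.28, limma adjusted p = 0.000139), and in the tubulin Tubb1 (−0.68, limma adjusted p = 0.00659). The protease inhibitor Serpine2 rose (0.66, limma adjusted p = 0.00475), and F13a1, a subunit of clotting factor XIII, fell (−0.46, limma adjusted p = 0.0126, and 0.0530 without WT replicate 3). Itga2b, the integrin chain that marks megakaryocytes, had 11, 19 and 14 fragments in WT and 35, 30 and 37 in PGRN KO without overlap, but was not called (0.21, limma adjusted p = 0.0727). Gp9, of the platelet receptor for von Willebrand factor, had 3, 0 and 2 against 0, 0 and 2. The 11 platelet genes under the filter, Gp9 among them, together had 9, 6 and 7 fragments in WT and 17, 17 and 23 in PGRN KO. The partner of Gp9, Gp1bb, had 0 in every library, which allows up to 3 fragments in each.

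Among other carbonic anhydrases, 1 of 5 tested rose and 1 fell. Car9 went from 0.469 to 1.02 FPKM (0.46, limma adjusted p = 0.0115) and Car13, which lies in the cluster with Car1 and Car2, from 23.1 to 15.1 (−0.59, limma adjusted p = 0.00262). The chemokine genes that lie on chromosome 5 with Pf4 and Ppbp were lower in 4 of 5 tested and higher in 0 by limma, with 0 higher at an unadjusted p under 0.05 or by voom too. Cxcl3 (−0.76), Cxcl1 (−0.36), Cxcl10 (−0.34) and Cxcl2 (−0.28) had limma adjusted p of 0.00507, 0.0122, 0.00849 and 0.0272. The call of Cxcl2 was lost in 8 of 14 alternative analyses, with adjusted p up to 0.644.

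**Figure D4:**
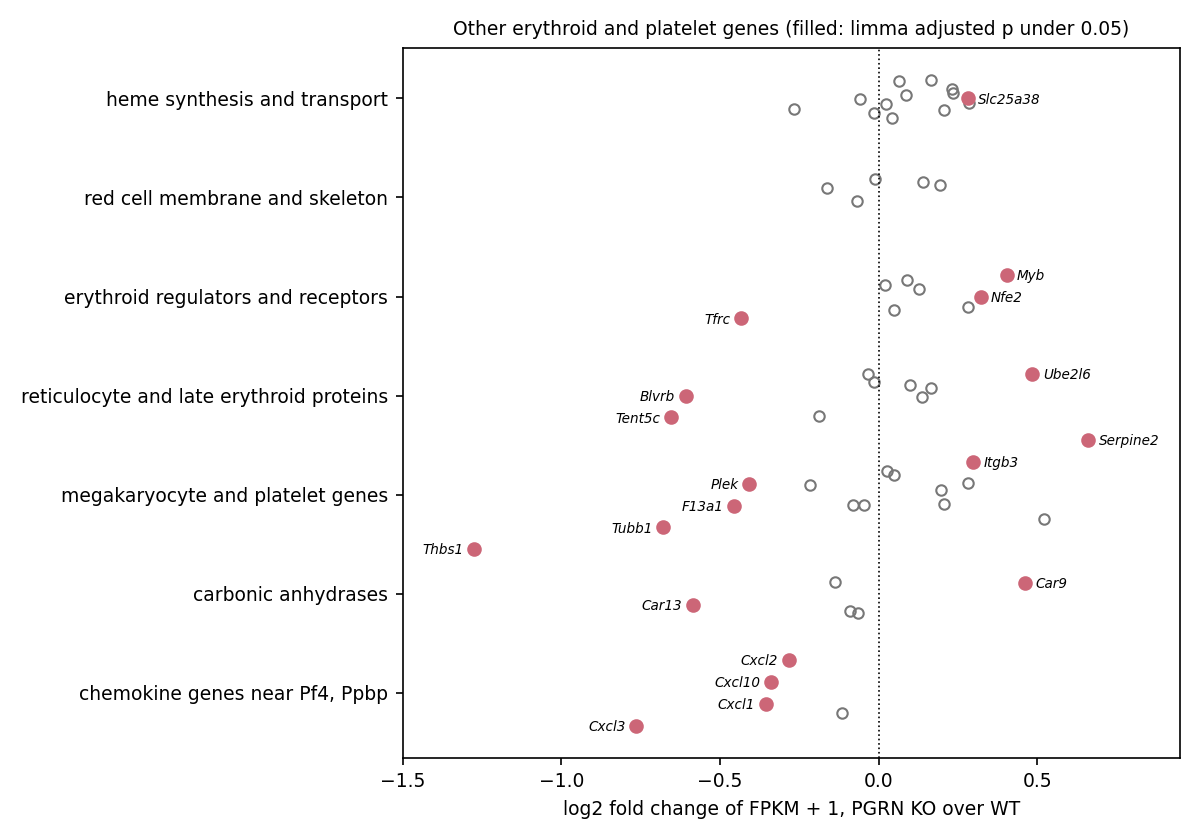
Log2 fold change of FPKM + 1 in PGRN KO over WT (horizontal axis) for tested genes of 7 lists (vertical axis), with filled and named points for those with a limma adjusted p under 0.05 and open points for the rest. Heme genes lie mostly to the right of 0, platelet genes spread to both sides, and 4 of 5 chemokine genes are filled and to the left.

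Markers of several other kinds of cell moved with the 9 genes, whose summed FPKM lay between 3.08 and 5.13 in WT, and between 9.10 and 9.35 in PGRN KO. Primary granule genes, the mark of promyelocytes, summed to 128.7 to 143.8 FPKM in WT, against 608.7 to 670.4 in PGRN KO, with 5 of 5 higher by limma. Basophil and mast cell markers summed to 3.59 to 4.2 against 13.4 to 14.9 (5 of 7 tested higher), and those of B and plasma cells to 68.5 to 74.7 against 122.9 to 136.4 (5 of 6 higher). The sum of T and natural killer cell markers, 2.51 to 3.29 against 7.54 to 8.69, rested on Nkg7, a protein of cytotoxic granules, which rose from 2.54 to 7.79 FPKM (limma adjusted p = 0.000377). The other tested marker, Cd3d, was 0.433 and 0.278 FPKM (limma adjusted p = 0.540), Cd3e and Cd3g were at 0 in every library, and the rest held 0 to 2 fragments in a genotype. Genes of dividing cells summed to 89.9 to 94.0 against 116.0 to 124.6 (6 of 7 higher), and those of stem and progenitor cells to 9.16 to 10.1 against 10.4 to 12.1 (1 of 3 tested higher), with Mecom at 0. Most of the stem and progenitor sum was Ly6a, at 7.85 and 8.63 FPKM (limma adjusted p = 0.417). The gene called there, Kit, also counts among the basophil and mast cell markers. The 4 stem and progenitor genes under the filter had 50 fragments in WT and 48 in PGRN KO. Monocyte and macrophage markers went the other way, from 119.4 to 122.8 down to 92.2 to 104.5, with 4 of 7 tested lower. The part of these cells in the values of the 9 genes was not tested.

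**Figure D5:**
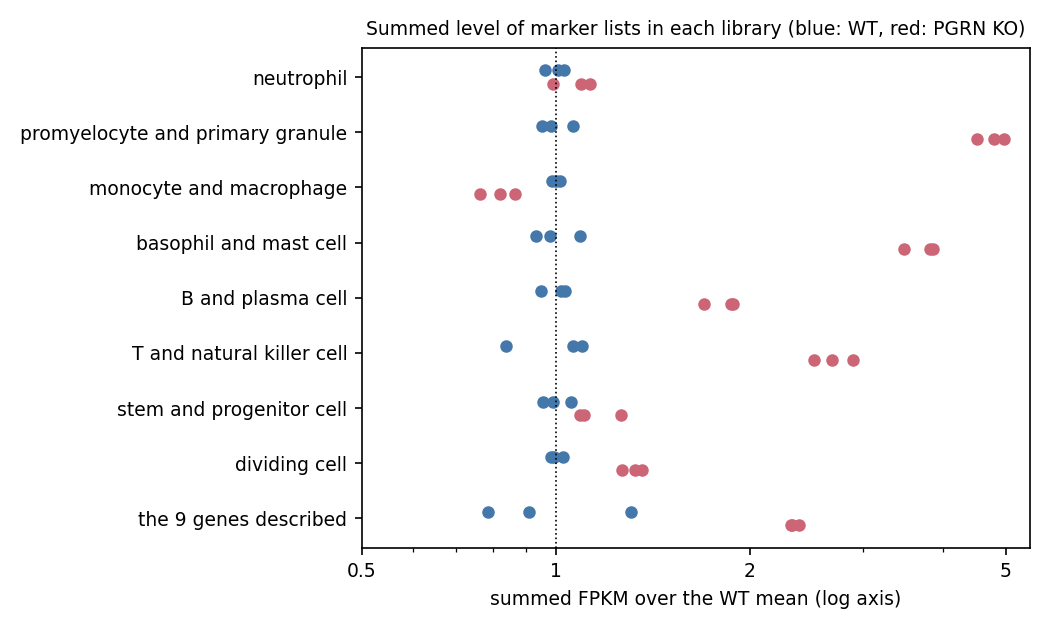
Summed FPKM of each marker list in each library, divided by the WT mean of that list (log axis), for WT (blue) and PGRN KO (red). The 9 genes described stand in the bottom line, where WT sums of 3.08 to 5.13 FPKM lie below PGRN KO sums of 9.10 to 9.35, and the widest gap is that of the primary granule genes.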

How the data were processed

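Neutrophil RNA was poly(A)-selected and sequenced as paired ends. Per the labels' processing notes, the submitters used CASAVA, HISAT2 2.0.5, featureCounts 1.5.0-p3 and DESeq2 1.20.0 with the build GRCm38 (mm10), while the study's methods name HISAT and HTSeq. The authors deposited FPKM values per gene for 6 libraries, mapped to genotype from their labels. From these, fragments were recovered as FPKM times gene length divided by the value of 1 fragment. The values imply library sizes between 16679058 and 17126452 for WT and between 17848820 and 19656980 for PGRN KO, which differ from the recovered totals. Values were compared as log2(FPKM + 1) with limma 3.58.1 (lmFit, eBayes with trend; R 4.3.3), two-sided, over 14807 genes with a mean of at least 0.1 FPKM, called at a Benjamini-Hochberg adjusted p under 0.05. A fold change on this scale understates that of low genes. The fit was also run on simulated data with set changes, whose outcome is not reported here and gives no error rate for these libraries. Python 3.11.15 with numpy 2.4.6, pandas 2.3.3, scipy 1.17.1 and matplotlib 3.10.9 did the rest. The 9 genes and all lists were chosen with earlier results of these data known. Named are the 9 genes, Grn, up to 4 called genes a list with the largest change, defining markers whatever their value, and the 3 nearest profiles of each of the 9. Other genes are named where they bear on a sum, a count or a position. Alternatives were other pseudocounts, filters and scalings, limma voom on recovered fragments, and each library left out. Some genes of the lists enter the counts and are not reported here by name or in the plot of the lists. The macrophage libraries were not analysed here.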

Additional observations from a re-analysis of the deposited data

How the results depend on the processing

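The number of genes called by limma was 2648, 4236 with limma voom on recovered fragments, and 1322 to 2161 with a library left out (1612, 1335 and 1662 without WT replicates 1, 2 and 3, and 1322 without PGRN KO replicate 5). Of the calls 44.4% were higher in PGRN KO, 69.7% of 3083 with plain totals of fragments and 70.4% with voom, which moved the median log2 fold change of all genes from 0.0026 to 0.067 and 0.12. Of the 9 genes, 5 lay wholly higher in PGRN KO in the main analysis and 5 to 6 with a library left out. Without PGRN KO replicate 6, 1 lay wholly lower. With fewer libraries groups separate more easily, and the share of all genes that did so was not taken. Nothing is read from these counts. The difference of Hba-a2 (0.0022 on the log2 scale) changed sign with a pseudocount of 5 (−0.0019), with quantile normalization (−0.0058), without WT replicate 2 or without replicate 3 (−0.070 each) and without PGRN KO replicate 5 (−0.034), and was −0.070 to 0.15 over all libraries left out in turn. Heme genes had 2 calls, against 1 with no filter, 5 with plain totals, 7 with voom and 0 to 2 with a library left out. Voom called 1 red cell membrane gene and 11 platelet genes (6 and 5 in either direction), against 0 and 6, and a filter at 1 FPKM left 1 carbonic anhydrase called in place of 2. The causes were not tested. The counts of the other 3 lists with called genes stayed within 1.5 times under all 14 alternatives. Depth limits Hba-a2, Alas2, Car1 and Ppbp, and 3 against 3 libraries allow no exact two-sided permutation p below 0.10 for a single gene. No paired analysis was made, as no source states which WT and PGRN KO libraries belong together.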
